A study of Rattus norvegicus with 10 samples.

Results

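Orm1, Lcn2, Kng1 and C3 are plasma-protein and innate-defence genes of the acute phase response, complement and the kinin system, and their mRNAs were followed in the aortas of rats given lipopolysaccharide (LPS). The 4 probes were taken, out of 38804 probes on the array and 28287 in its mRNA class, because the supplementary table of the study lists these genes among its most up-regulated mRNAs. The difference between LPS and control therefore chose them, and it is given as a description with no test. The array was a single-colour Agilent array for rat mRNAs and lncRNAs, and 5 LPS rats and 5 control rats had 1 array each. All rats were male Wistar rats aged 8 weeks. The LPS group received 10 mg/kg LPS in saline by intraperitoneal injection, the control group received 0.9% saline by the same route, and the aorta was taken 24 h later. The labels name the tissue as blood vessel, and no cell type was separated from the vessel before RNA extraction. In such tissue, more cells of a type and more RNA per cell cannot be told apart.

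The acute phase response is the change in plasma proteins that follows infection or injury. It is driven by cytokines such as interleukin-6 and interleukin-1, and the liver is its best known source. Complement is a cascade of plasma proteins that marks and lyses microbes. Kininogens are the precursors from which kallikreins release bradykinin and related kinins, peptides that widen vessels and make them leaky.

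The DNA just upstream of the annotated start of each gene is shown first, because all 4 genes were chosen for the same difference and the windows can be compared directly. Each window holds the 250 bases before the start, read 5′ to 3′ on the strand of the gene, from the RefSeq annotation of build GRCr8. The Orm1 window is chr5:81788259-81788508 on the plus strand, the Lcn2 window is chr3:36081781-36082030 on the minus strand, the Kng1 window is chr11:91340149-91340398 on the minus strand and the C3 window is chr9:2201340-2201589 on the minus strand. Capitals mark matches to the short motifs described in the next paragraph.
Orm1: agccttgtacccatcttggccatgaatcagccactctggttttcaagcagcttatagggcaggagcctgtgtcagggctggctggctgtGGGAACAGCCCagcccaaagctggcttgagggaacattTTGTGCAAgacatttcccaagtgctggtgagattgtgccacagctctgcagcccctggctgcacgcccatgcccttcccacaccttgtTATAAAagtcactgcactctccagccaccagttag
Lcn2: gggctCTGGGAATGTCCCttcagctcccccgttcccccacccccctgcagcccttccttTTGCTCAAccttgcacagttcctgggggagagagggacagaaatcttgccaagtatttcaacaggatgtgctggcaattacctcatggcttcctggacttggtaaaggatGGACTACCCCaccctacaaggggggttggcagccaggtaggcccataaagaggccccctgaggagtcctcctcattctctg
Kng1: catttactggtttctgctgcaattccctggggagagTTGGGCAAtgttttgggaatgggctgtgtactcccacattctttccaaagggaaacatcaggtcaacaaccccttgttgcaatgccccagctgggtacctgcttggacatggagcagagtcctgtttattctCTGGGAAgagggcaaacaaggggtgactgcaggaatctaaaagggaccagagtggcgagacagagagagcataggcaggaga
C3: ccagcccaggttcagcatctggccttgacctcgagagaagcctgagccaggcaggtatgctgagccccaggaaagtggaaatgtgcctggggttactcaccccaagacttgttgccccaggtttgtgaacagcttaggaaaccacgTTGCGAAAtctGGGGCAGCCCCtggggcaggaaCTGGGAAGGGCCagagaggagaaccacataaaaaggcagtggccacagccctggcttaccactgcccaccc

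The motif letters were chosen after the windows had been read, and every motif was searched on both strands. A C/EBP-type motif, TTGCNNAA, was present in all 4 windows, and 9.22% of the 33469 rat promoter windows of this length hold it. The match was TTGTGCAA in Orm1, from 123 to 116 bases before the start. In Lcn2 it was TTGCTCAA, from 191 to 184 bases before the start. In Kng1 it was TTGGGCAA, from 214 to 207 bases before the start, and in C3 it was TTGCGAAA, from 104 to 97 bases before the start. C/EBP proteins are transcription factors known for their role at acute phase promoters. The core of the type 2 acute phase element, CTGGGAA, was found in the windows of Lcn2, Kng1 and C3 and in 9.56% of all windows. It began 245 bases before the start in Lcn2, 82 bases before it in Kng1 and 71 bases before it in C3. A kappaB-type motif, GGG and CC with 5 bases of any kind between them, was present in the windows of Orm1, Lcn2 and C3, but these letters are common and 42.3% of all windows hold them. In both Lcn2 and C3, kappaB-type matches overlapped the CTGGGAA match. The STAT-type motif TTCNNNGAA was in 0 of the 4 windows and in 7.67% of all windows. The TATA box TATAAA was in the Orm1 window alone among the 4, from 35 to 30 bases before the start, and in 12.9% of all windows. A match is a run of letters and not a measured binding site.

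**Figure D1:**
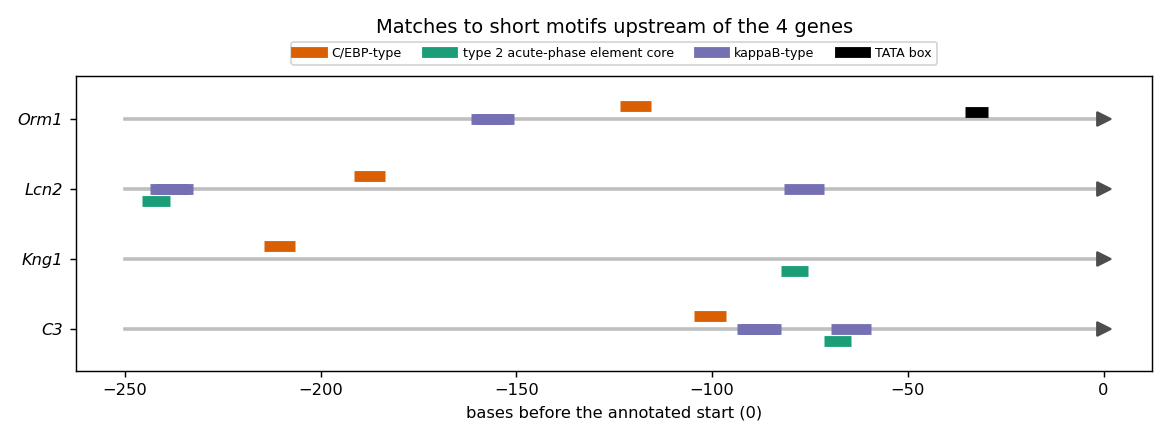
Positions of the motif matches in bases before the annotated start (horizontal axis, start at 0) in the windows upstream of Orm1, Lcn2, Kng1 and C3, coloured by motif. The C/EBP-type match lies between 123 and 116 bases before the start in Orm1, between 191 and 184 in Lcn2, between 214 and 207 in Kng1 and between 104 and 97 in C3.

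Apart from these letters, the windows of the 4 genes had little in common, since local alignments between them covered from 11 to 31 columns. Rats carry several kininogen genes, and the promoter sequence of Kng1 had close copies. RefSeq places 3 of them on chromosome 11, named Kng1, Kng2 and Kng2l1, and all 3 carry Kng1 as a symbol or a synonym. The windows of Kng1 and Kng2 were identical at 143 of 144 aligned columns (99.3%), and those of Kng1 and Kng2l1 at 258 of 279 (92.5%). The supplementary table assigns the probe to a transcript of Kng1. The probe and transcript sequences were not used here, so whether the probe also takes up signal from the other kininogen genes was not tested.

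Values are log2 intensities relative to the 75th percentile of the same array, so 0 stands for the intensity at that percentile. Each of the 4 genes was read from 1 spot per array, and all 4 were well above background on all 10 arrays. Per array, 79.6% to 92.6% of probes stood well above background, the 75th percentile lay between 190.3 and 453.7 intensity units, and 0 spots were saturated. For the median spot, LPS rats 1 and 3 differed by no more than the spot error of the scanner software, and so did control rats 15 and 17. The median squared differences of these pairs were 0.986 and 0.783 times what that error gives. The other 43 pairs of arrays gave 3.99 to 12.9 times. Both pairs were therefore averaged, and means and SDs rest on 4 LPS and 4 control samples. This choice rests on the error of the software, with a median of 0.146 on the log2 scale. The median SD between spots of the same probe was smaller, at 0.098. The paired arrays were not copies of 1 file, because 2.42% and 1.68% of 31626 spots still differed by more than 2-fold within the pairs. The labels do not say more on how the rats were kept or sampled apart, so the SDs measure the spread between these samples.

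Orm1 encodes orosomucoid, or alpha-1-acid glycoprotein, an abundant carrier protein of plasma. Its probe had log2 values of 6.25, 6.17, 5.17, 5.38 and 5.36 in LPS rats 1, 3, 5, 6 and 7. In control rats 15, 16, 17, 18 and 20 the values were -0.13, -0.27, -0.22, -0.23 and -0.08. LPS rats 1 and 3 stood above the other LPS rats, the control rats were almost level, and the groups did not overlap. The LPS mean was 5.53 ± 0.46 (SD, n = 4) and the control mean -0.19 ± 0.08 (SD, n = 4). The log2 difference was 5.72, or 52.6-fold, and with 10 separate arrays it was 5.85.

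Lcn2 encodes lipocalin 2, a secreted protein that binds bacterial siderophores and is known from neutrophil granules and inflamed epithelium. The log2 values of its probe were 8.01, 7.74, 8.13, 7.63 and 7.33 in LPS rats 1, 3, 5, 6 and 7. They were 1.92, 1.68, 3.49, 1.86 and 2.47 in control rats 15, 16, 17, 18 and 20. The LPS rats lay close together, control rat 17 stood above the other control rats, and there was no overlap. The LPS samples averaged 7.74 ± 0.34 (SD, n = 4) and the control samples 2.18 ± 0.49 (SD, n = 4). The log2 difference was 5.56, or 47.3-fold, and 5.48 with 10 separate arrays.

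Kng1 encodes kininogen, and the T-kininogens of the rat are also known as acute phase proteins and inhibitors of cysteine proteases. The Kng1 probe had log2 values of 3.37, 3.17, 4.56, 3.46 and 5.65 in LPS rats 1, 3, 5, 6 and 7. Its values in control rats 15, 16, 17, 18 and 20 were -3.54, -2.46, -3.27, -4.01 and -3.43. LPS rat 7 was the highest, followed by LPS rat 5, and control rat 16 was the highest of the control rats, again with no overlap. The LPS mean was 4.24 ± 1.1 (SD, n = 4) and the control mean -3.33 ± 0.64 (SD, n = 4). The log2 difference was 7.56, or 189-fold, and 7.38 with 10 separate arrays. The control signal was dim. Its background-corrected intensities were 22.0, 34.6, 31.6, 12.3 and 37.0 in control rats 15, 16, 17, 18 and 20, beside local background medians of 15 to 16. In the LPS rats the intensities ran from 2847 to 18556. With normexp background correction, an alternative that adds an offset of 50 and pulls dim values together, the log2 difference was 5.82. Its size therefore depends on the processing. Normexp also started from the median spot intensity, and which of these changes moved the value was not tested.

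C3 encodes complement component 3, on which the activation routes of the cascade converge. The C3 probe gave log2 values of 6.45, 6.35, 7.40, 6.76 and 6.82 in LPS rats 1, 3, 5, 6 and 7. Control rats 15, 16, 17, 18 and 20 gave 0.35, 1.46, 0.14, 2.02 and 2.08. LPS rat 5 was the highest, control rats 15 and 17 lay well below the other control rats, and the groups did not overlap. The LPS samples averaged 6.84 ± 0.42 (SD, n = 4) and the control samples 1.45 ± 0.85 (SD, n = 4). The log2 difference was 5.39, or 42.1-fold, and 5.55 with 10 separate arrays.

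**Figure D2:**
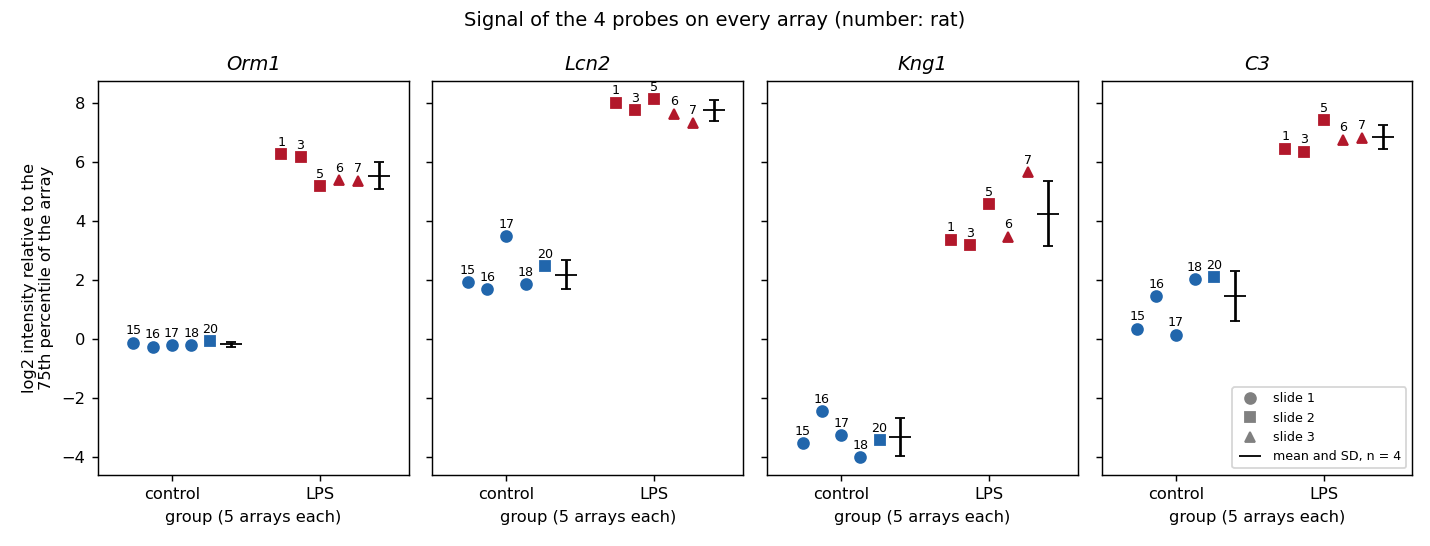
Log2 intensity of the Orm1, Lcn2, Kng1 and C3 probes relative to the 75th percentile of the array (vertical axis) in 5 control and 5 LPS arrays (horizontal axis). Points are arrays with the number of the rat and are shaped by slide, and black bars give the mean and SD of 4 samples per group. In each panel every LPS point lies above every control point, and the Orm1 control points are nearly level, from -0.27 to -0.08.

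All 4 genes had every LPS sample above every control sample, and 4.49% of the 33694 tested mRNA and lncRNA probes did so. With 10 separate arrays, 3.43% of the tested probes separated in this way. The number of such probes was 1513 in the 8 samples, and it was 715 with normexp, 2585 without LPS rat 7, 2396 without control rat 16 and 2939 without control rat 20. The log2 difference was at least that of C3, the lowest of the 4 genes, for 12 tested probes (0.0356%), and for 7 with normexp. Because the genes were chosen by this contrast, nothing is read from these counts. The median log2 difference of the 4 genes was 5.64, beside 0.09 over all tested probes, of which 20087 had a difference above 0. Ordered by log2 difference, Kng1 was number 1 of the 33694 probes, Orm1 number 7, Lcn2 number 9 and C3 number 12. The gap between the lowest LPS sample and the highest control sample was 5.73 for Kng1, 5.25 for Orm1, 4.63 for Lcn2 and 4.32 for C3, all on the log2 scale. With normexp the gaps were 4.48 for Kng1, 4.89 for Orm1 and 4.75 for Lcn2, so Kng1 no longer had the widest gap. The log2 difference of Kng1 was then 5.82 and that of Lcn2 5.60. The order over all tested probes is given for the main values only, so the first place of Kng1 is not shown with normexp.

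**Figure D3:**
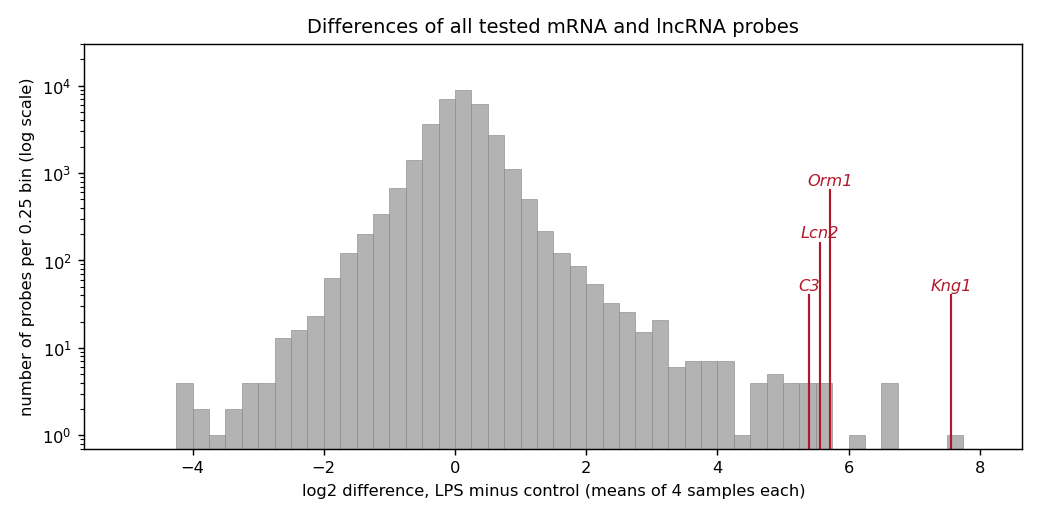
Number of tested mRNA and lncRNA probes (vertical axis, log scale) by log2 difference, LPS minus control (horizontal axis, means of 4 samples per group, bins of 0.25), with red lines at Orm1, Lcn2, Kng1 and C3. C3 at 5.39, Lcn2 at 5.56 and Orm1 at 5.72 lie close together, and Kng1 at 7.56 lies in the last occupied bin on the right.

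The arrays fell on 3 slides, inferred from their scan times by taking arrays with the same scan time as 1 slide. Slide 2 was the only slide with both groups. It held LPS rats 1, 3 and 5 and control rat 20, while slide 1 held the other control rats and slide 3 held LPS rats 6 and 7. With the slide as a block, or on slide 2 alone, which give the same value here, the log2 difference was 5.77 for Orm1, 5.53 for Lcn2, 7.35 for Kng1 and 4.82 for C3. With the 4 arrays of slide 2 taken separately it was 5.95, 5.49, 7.13 and 4.65 for the same genes, in that order. All of these values rest on 1 control rat. The C3 value is the one that moved most, and control rat 20 had the highest C3 value of the control rats. On slide 3 the 2 LPS samples had mean log2 values of 5.37 for Orm1, 7.48 for Lcn2, 4.56 for Kng1 and 6.79 for C3. On slide 1 the 3 control samples had mean log2 values of -0.22, 2.08, -3.29 and 1.24 for these genes.

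How far the rats of 1 group lay apart is also given as a description. The study set limits on both the fold change and a significance test, and that spread enters the test. The SD within a group was set beside the spot error that the scanner software gives for the same probe and beside the SDs of all tested probes. Their median SD was 0.35 in the LPS samples and 0.42 in the control samples, and the median spot error was 0.146, all on the log2 scale. The spot error is the estimate of the software for 1 spot and does not measure labelling, hybridisation or scaling between arrays. A step of several spot errors is therefore no test of a difference between rats. This estimate hardly differed between the 4 genes. In the LPS samples it was 0.144 for each of them, and in the control samples only that of Kng1, at 0.166, stood clearly higher. The median SD between spots of the same probe was smaller, at 0.098.

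Among the control samples, Orm1 varied less than the spot error of the software. Its control SD of 0.08 was 0.561 times the spot error, and 1.01% of the tested probes had a smaller control SD. No neighbouring pair in the order of control samples differed by more than 0.535 times their combined spot error, so single steps give no order for Orm1. Control rat 20 came first under each normalisation, and the order of the other control samples changed with normexp. The control intensities were 158 to 378, well over the local background medians of 17.5 to 20. Over the other normalisations and with each array left out, the control SD of Orm1 ran from 0.05 to 0.09. It was 0.047 without control rat 20 and 0.045 with normexp. In the LPS samples the SD was 0.46, or 3.22 times the spot error, and 68.5% of the tested probes had a smaller LPS SD. The averaged LPS rats 1 and 3 led with 6.21, and LPS rat 6 followed at 5.38, a gap of 4.73 times the combined spot error. LPS rats 6, 7 and 5 differed from the next by no more than 0.919 times that error. The LPS SD of Orm1 was larger with quantile normalisation, at 0.85, and with the authors' processed values, at 0.82. LPS rats 1 and 3 led under each normalisation, and without both of them the LPS SD of Orm1 was 0.11.

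Lcn2 had an LPS SD of 0.34, which was 2.37 times the spot error, and 48.4% of tested probes had a smaller LPS SD. With the authors' processed values the LPS SD was 0.52, and with normexp it was 0.23. Its control SD of 0.49 was 3.39 times the error, with a smaller control SD in 58.9% of tested probes. That control SD rests on the averaging of rats 15 and 17, and it was 0.74 with 10 separate arrays and 0.82 without control rat 15. LPS rat 5 came before LPS rats 1 and 3, then 6, then 7, in steps of 1.37 to 1.47 times the combined spot error. With quantile normalisation and with the authors' processed values, LPS rats 1 and 3 came first and LPS rat 5 next. Among the control samples, the averaged rats 15 and 17 at 2.71 and rat 20 at 2.47 lay above rats 18 and 16, and the step from rat 20 to rat 18 was 3.02 times the error.

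Kng1 had an LPS SD of 1.1, which was 7.65 times the spot error, and 97.8% of the tested probes had a smaller LPS SD. With quantile normalisation it was 0.87, close to the 0.85 of Orm1, and with the authors' processed values 0.88, beside 0.82 for Orm1. Without LPS rat 7 the LPS SD of Kng1 was 0.70. LPS rat 7 lay above LPS rat 5 by 1.09 and LPS rat 5 above LPS rat 6 by 1.1, steps of 5.35 and 5.39 times the combined spot error. LPS rat 6 and the averaged LPS rats 1 and 3 differed by 1.1 times the error, and their order turned with quantile normalisation and with the authors' processed values. The control SD of 0.64 was 3.86 times the spot error, with a smaller control SD in 73.5% of tested probes. Control rat 16 was set apart from the next control sample by 4.91 times the error, on dim spots. Without control rat 16 the control SD of Kng1 was 0.34, and with normexp it was 0.37.

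C3 had the widest control group of the 4 genes. Its control SD of 0.85 was 5.90 times the spot error, and 85.2% of the tested probes had a smaller control SD. Control rats 20 and 18 were within 0.328 times the combined spot error of each other, rat 16 lay 2.74 times the error below rat 18, and the averaged rats 15 and 17 lay 6.85 times the error below rat 16. The LPS SD of 0.42 was 2.88 times the error, with a smaller LPS SD in 61.4% of tested probes. LPS rat 5 led LPS rat 7 by 2.86 times the error, and LPS rats 1 and 3 were lowest. With quantile normalisation and with the authors' processed values, LPS rat 5 still led, but LPS rat 7 was the lowest. The LPS SD of C3 was 0.27 with quantile normalisation and 0.28 with the authors' processed values. Without LPS rat 5 the LPS SD of C3 was 0.23.

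**Figure D4:**
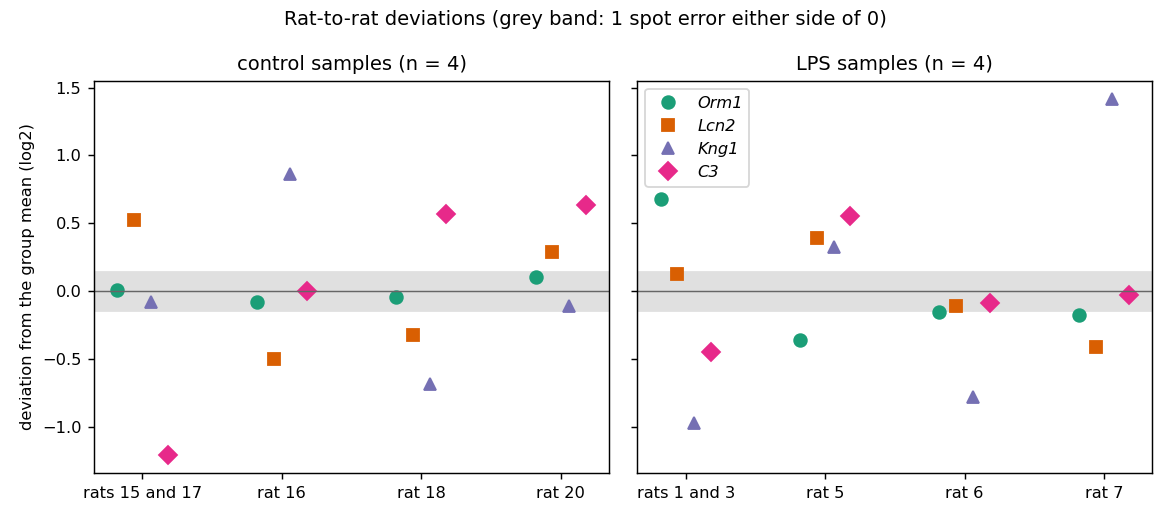
Deviation of each sample from its group mean (vertical axis, log2) for Orm1, Lcn2, Kng1 and C3 in 4 control samples (left) and 4 LPS samples (right), with a grey band of 1 spot error on either side of 0. The Orm1 control points stay inside the band, Kng1 spans 2.39 among the LPS samples and C3 spans 1.84 among the control samples.

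The highest and lowest samples are given side by side for the 4 genes as an order of values, with no test. The averaged LPS rats 1 and 3 had the highest Orm1 value but the lowest Kng1 and C3 values of the LPS samples. LPS rat 7 had the highest Kng1 value and the lowest Lcn2 value. Among the control samples, the averaged rats 15 and 17 had the lowest C3 value. They also had the highest Lcn2 value, but through rat 17 alone, since Lcn2 was 3.49 in rat 17, 2.47 in rat 20 and 1.92 in rat 15. The lowest places of Kng1 and C3 in LPS rats 1 and 3 did not remain with quantile normalisation.

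The near-identical arrays gave a further look at each gene. Between LPS rats 1 and 3 the log2 values differed by 0.08 for Orm1, 0.27 for Lcn2, 0.20 for Kng1 and 0.10 for C3, at most 1.31 times the spot error. Between control rats 15 and 17, Orm1 differed by 0.08, C3 by 0.21 and Kng1 by -0.28, at most 1.2 times the error. Lcn2 was the exception. It was lower in control rat 15 than in control rat 17 by a log2 difference of -1.57, which is 7.68 times the spot error, and 0.632% of the tested probes lay as far apart. The intensities were 973 in rat 15 and 3421 in rat 17. Without control rat 15 the log2 difference of Lcn2 between the groups was 5.37 and its control SD 0.82, and without control rat 17 they were 5.76 and 0.34.

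The likeness of profiles was measured as the root mean square difference over the 8 samples, after each probe was centred on its own mean. It was taken between each gene and the 19 other mRNAs that the supplementary table pairs with a probe, all of which were chosen by the same contrast. Orm1 and Lcn2 were most like each other, at 0.437 on the log2 scale. Of 26232 mRNA probes compared, 0 were nearer to Orm1 than Lcn2 was, and 1 was nearer to Lcn2 than Orm1 was. Next for Orm1 came Sectm1b at 0.594 and C3 at 0.748. Next for Lcn2 came S100a8 at 0.583, a calcium-binding protein abundant in neutrophils, and Sectm1b at 0.603. Kng1 was most like Cxcl1, a neutrophil-attracting chemokine, at 0.699, with 0 mRNA probes nearer. It was followed by Il6, the gene of interleukin-6, at 0.789 and the chemokine gene Ccl7 at 1.04. Il6 passed the background limit on 2 control arrays out of 5, so its control values are near background. C3 was most like Ccl7 at 0.718, followed by Orm1 at 0.748 and Lcn2 at 0.769, and 6 mRNA probes were nearer to C3 than Ccl7 was. For each of the 4 genes the nearest of the 19 named mRNAs was the same with 10 separate arrays, quantile normalisation, normexp and the authors' processed values. All of these settings keep the difference between LPS and control that chose the genes, so nothing is read from this agreement.

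Centring on the mean of all samples leaves the difference between LPS and control in the profiles. Values centred on the group means are given for the main processing only. When each probe was centred on its 2 group means instead, Lcn2 was the nearest of the named mRNAs to Orm1, at 0.430, but 11784 of the 26232 mRNA probes were nearer. Orm1 was the nearest to Lcn2, with 9027 probes nearer, and Lrrc52 came next at 0.433 although it was lower in LPS. Cxcl1 was nearest to Kng1 at 0.538, with 284 probes nearer, and Il6 followed at 0.613 with 1159 nearer. Ccl7 was nearest to C3 at 0.453, with 1301 nearer. These values describe 8 samples, and nothing on shared control is drawn from them.

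Markers of other cells were also named through the supplementary table alone, so the same contrast chose them and fixed their direction, and their values are a description. The neutrophil list held 6 genes, of which S100a8 and S100a9 had a named probe, and both were well above background on all 10 arrays. The summed level of the pair, on the log2 scale, ran from 5.76 to 6.89 (median 6.77) on the LPS arrays and from 0.30 to 3.16 (median 1.5) on the control arrays. S100a8 averaged 5.72 ± 0.54 after LPS and 0.29 ± 1.25 in controls, and S100a9 averaged 5.22 ± 0.48 after LPS and 0.59 ± 1.1 in controls (SD, n = 4 each). Control rats 15 and 17 were the highest control rats for both genes, at 1.86 and 2.15 for S100a8 and 1.98 and 2.17 for S100a9. Lcn2 was high in rat 17 and not in rat 15. The part of neutrophils in the Lcn2 signal, or in that of the other 3 genes, was not tested.

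The brown adipocyte list held 4 genes, of which Ucp1, the uncoupling protein of brown fat, and Cox8b, a cytochrome c oxidase subunit, had a named probe. Their summed level ran from 4.95 to 6.72 (median 5.95) on the LPS arrays and from 8.51 to 9.86 (median 9.37) on the control arrays. Both are in the table as down-regulated mRNAs, so their lower level after LPS was fixed by how they were chosen. Ucp1 averaged 5.64 ± 0.65 after LPS and 8.91 ± 0.68 in controls (SD, n = 4 each), with no overlap. Cox8b averaged 3.49 ± 1.27 after LPS and 6.11 ± 1.1 in controls (SD, n = 4 each), and its groups overlapped, since LPS rat 7 at 4.73 lay above control rat 16 at 4.50. The part of brown adipocytes in the values of the 4 genes was not tested. Hepatocyte, macrophage, white adipocyte, smooth muscle, endothelial and skeletal muscle markers had 0 named probes and were not analysed here, so the labelled tissue was not checked by its own markers.

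The same limit holds for the pathways. A list of 26 acute phase genes had named probes for 2, Orm1 and Lcn2. A list of 28 complement genes had 1, C3, and a list of 15 kinin system genes had 1, Kng1. The files give no gene names for most probes, and a further 30 probes that could be named through RefSeq accessions added 0 members to these lists. Other acute phase proteins, complement components, kallikreins and bradykinin receptors were therefore not analysed here.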

How the data were processed

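Aortic RNA of 5 LPS and 5 control rats was hybridised to single-colour Agilent arrays. The authors deposited scanner output of Agilent Feature Extraction 11.0.1.1, with a background-corrected intensity per spot and no normalisation across arrays. A table of processed log2 values was deposited by the authors as well, whose column medians are all 5.84 and whose correlation with the scanner log2 intensities, across probes, was 0.990 to 0.994. Its scale is log2, and its normalisation and centring are not given in the sources used here. The genes and lists were chosen with earlier results of these data known, and so was the averaging of near-identical arrays.

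The log2 intensity minus the 75th percentile of the array was taken, and spots of the same probe were averaged, leaving out outlier spots (92 to 164 per array). Tested probes were 26233 mRNA and 7461 lncRNA probes that stood well above background on 5 or more of the 10 arrays. Groups were taken from the labels. No test was run on the 4 genes. Precision is limited by how many arrays there are. Spot errors are those of the software. For 48 probes with 10 spots each, the median SD between spots was 0.098 on the log2 scale. Gene names came from the supplementary table of the study (20 mRNA probes), and from RefSeq accessions for 30 of the replicated probes. The text names Orm1, Lcn2, Kng1 and C3, for each the 3 named mRNAs with the nearest profile, and markers with a named probe. Promoter windows and gene annotation came from RefSeq (GRCr8), in which all 4 symbols were matched. R 4.3.3 with limma 3.58.1, Python 3.11.15 with pandas 2.3.3 and Biopython 1.88 were used, and the steps were tested on simulated data. The alternatives were 10 separate arrays, quantile normalisation, normexp with an offset of 50, the authors' values, outlier spots kept, no filter or a stricter one, a slide block, and leaving out each array. The median spot intensity entered normexp, because the scanner files used here have no mean column. Slide 2 with separate arrays, the alternatives for the spread among control samples, and the LPS spread with normexp or without single LPS rats, came after the data had been seen.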

Additional observations from a re-analysis of the deposited data

How the results depend on the processing

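The LPS values of Orm1, Lcn2, Kng1 and C3 lay above all control values with 10 separate arrays, each other normalisation, outlier spots kept and each array left out, and the number of genes without overlap was 4 in each of these settings. When any 1 array was left out, the log2 difference was 5.69 to 5.84 for Orm1, 5.37 to 5.76 for Lcn2, 7.09 to 7.85 for Kng1 and 5.21 to 5.61 for C3. Values moved by more than the pooled SD of both groups for Kng1 with normexp (5.82 in place of 7.56, pooled SD 0.90) and for C3 on slide 2 alone with separate arrays (4.65 in place of 5.39, pooled SD 0.67). The LPS SD of C3 was 0.27 with quantile normalisation and 0.28 with the authors' values, in place of 0.42. The probes with every LPS sample above every control sample numbered 1513, and 715 with normexp. Leaving out 1 array gave 1324 to 2939, with 2585 without LPS rat 7, 2396 without control rat 16 and 2939 without control rat 20. It gave 2160 without LPS rat 5, 1749 without LPS rat 6 and 1845 without control rat 18. Each of these omissions leaves fewer samples to be separated. The probes with a log2 difference at least that of C3 numbered 12, and 7 with normexp. No paired analysis was possible because LPS and control rats share no replicate numbers. Precision is limited by 4 samples a group, 1 spot per gene, dim control spots for Kng1 and a single control array on the slide that holds both groups. The causes of these shifts were not tested.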
